A study of Mus musculus with 8 samples.

Results

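The 36 genes described here encode members of the nuclear receptor family, taken by mouse gene symbol from a list. It leaves out the REV-ERB clock receptors and some other members of the family. All 36 were found among the 41388 features counted in the livers of obese diabetic mice. Liver RNA had been sequenced from 4 littermate db/db mice given an adenovirus encoding green fluorescent protein (AdGFP) and 4 given an adenovirus encoding NAMPT (AdNAMPT), the enzyme that salvages nicotinamide into NAD. In both groups the mice, which lack a working leptin receptor and carry the strain label C57B/6J, were randomised at 5 weeks of age, injected through the tail vein and 10 weeks old at sampling, with 4 to 5 weeks of overexpression according to the series description. The paper gives days rather than weeks after adenovirus delivery, in its methods and for adipose tissue of such db/db mice, so the time is uncertain. The genotype label read control for the AdGFP mice and NAMPT overexpression for the AdNAMPT mice, and db/db is taken from the titles. Nothing in the labels restricts the vector to one cell type, and the RNA came from homogenised liver, so fewer cells of a type and less RNA per cell cannot be told apart.

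Nuclear receptors are transcription factors that are switched by small lipophilic molecules. Many sit on DNA as a pair with a retinoid X receptor (RXR) and recognise repeats of a short half-site, and they recruit corepressors or coactivators according to the ligand they hold. In liver they are known for sensing fatty acids (PPARs), oxysterols (LXRs), bile acids (FXR), foreign compounds (CAR and PXR), thyroid hormone, retinoids and steroids, while orphan members such as HNF4α maintain the hepatocyte programme.

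Libraries held 12006713 to 19879814 counts, and the 36 receptors together took between 0.198% and 0.27% of them. Nampt itself did not separate the groups: on the scale of CPM (counts over library size, with sizes adjusted by the TMM method) replicates 1 to 4 were at 107, 149, 160 and 148 in AdGFP and at 144, 120, 172 and 168 in AdNAMPT (log2 fold change 0.08 ± 0.15 SE, limma adjusted p = 0.915), so the groups are named below as the libraries were labelled. Gm42418, a gene that overlaps ribosomal RNA, took 0.996% to 2.25% of counts in the libraries labelled AdGFP and 0.2% to 0.233% in those labelled AdNAMPT, which did not overlap. Mitochondrial ribosomal RNA did not overlap either, at 1.77% to 2.56% and 0.863% to 1.62%. One library stood apart: AdNAMPT replicate 1 received a quality weight of 0.44, against 0.811 to 1.41 in the other 7, and was the highest or the lowest of 8 libraries for 18 of 31 tested receptors (58.1%), compared with 44.1% of all tested genes. The part of these differences in the results was not tested, and fold changes that this library moves are given with and without it.

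Levels were compared between receptors on the deposited RPKM scale, which is per kilobase of exon. Hnf4a, which encodes the orphan receptor that maintains hepatocyte identity, was the most abundant at 130 ± 30.5 RPKM (mean ± SD, n = 8). It was followed by the bile acid receptor FXR (Nr1h4, 68.7 ± 9.78 RPKM) and the shared partner RXRα (Rxra, 66.2 ± 7.55 RPKM), which did not differ beyond their spread. PPARα (Ppara, 46.4 ± 4.66 RPKM), LXRα (Nr1h3, 42.6 ± 2.78 RPKM), PXR (Nr1i2, 41.2 ± 6.17 RPKM) and SHP (Nr0b2, 39.8 ± 5.93 RPKM) formed the next step and overlapped one another, and CAR (Nr1i3) stood at 30.4 ± 5.19 RPKM. In all, 12 receptors had a mean of at least 10 RPKM and 28 of at least 1 RPKM. At the other end, 5 receptors were above 1 CPM in fewer than 3 libraries and were not tested: the vitamin D receptor Vdr had 0 to 3 counts per library, Nr4a3 0 to 4, Hnf4g 0 to 7, Nr2f1 3 to 9 and Nr4a2 3 to 20. A floor on counts covers counting error only, and 3 counts corresponded to 0.151 to 0.25 CPM.

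**Figure D1:**
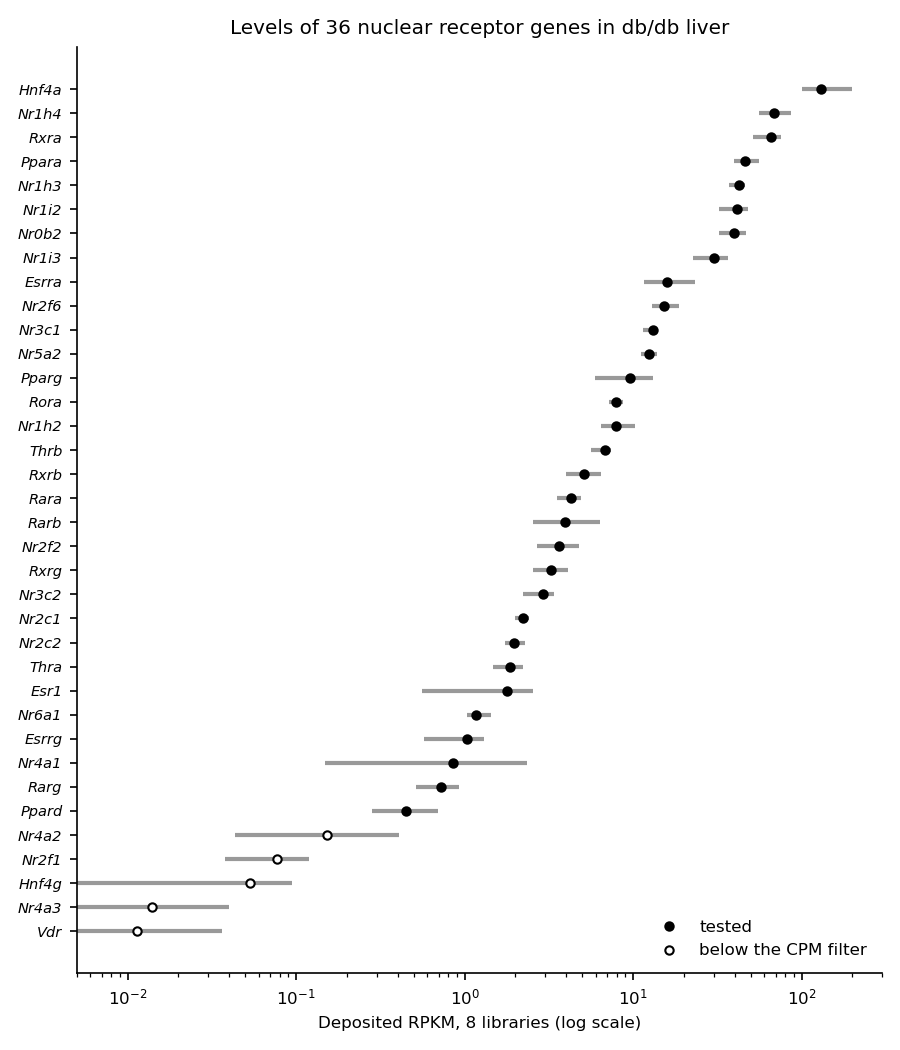
Deposited RPKM of the 36 receptor genes on a log axis, with the mean of 8 libraries as a point and the lowest to highest library as a line; lines that reach the left edge include libraries at 0. Hnf4a lies highest at 130 RPKM, and the 5 open points are the receptors that were not tested.

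The comparison of the libraries labelled AdNAMPT with those labelled AdGFP asked whether NAMPT delivery goes with a different set of receptor transcripts. Of the 31 tested receptors, 0 passed a Benjamini-Hochberg adjusted p of 0.05 in limma (lowest adjusted p 0.411), where 0.277% of all 12270 tested genes did. The edgeR quasi-likelihood test, the edgeR exact test and DESeq2 also called 0 of them. At an unadjusted p under 0.05 there were 7 receptors, 22.6% against 9.69% of all tested genes. Of these, 2 were higher in AdNAMPT (Rarg and Thra, 6.45% of receptors against 4.65% of all genes) and 5 were lower (Nr0b2, Esrrg, Nr3c1, Esr1 and Thrb, 16.1% against 5.04%). Without AdNAMPT replicate 1, 1 of 31 receptors was under that threshold (3.23%, against 10.5% of all genes). With library size as the only scaling, which moved the median of all genes by 0.09, there were 5 higher (16.1%, against 11.4% of all genes) and 1 lower (3.23%, against 1.74%). Log2 fold changes of the reported fit were positive for 13 and negative for 18, and ran from -0.61 to 0.4. Their median was -0.024, compared with 0.0015 over all genes, and the median size of the change without its sign was 0.15, compared with 0.11. The 95% confidence interval lay within 2-fold in both directions for 29 of 31 receptors and within 1.5-fold for 25. The values of the 2 groups did not overlap for 3 receptors that were higher in AdNAMPT (Rarg, Thra and Nr2f6, 9.68% against 2.09% of all genes). For 1 of the 31 that was lower they did not overlap either (Nr3c1, 3.23% against 2.7%, shares that lie close). On CPM scaled by library size alone the share of all genes that were higher without overlap was 7.36%, beside the same 9.68% of receptors, and 0 receptors and 0.856% of genes were lower.

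**Figure D2:**
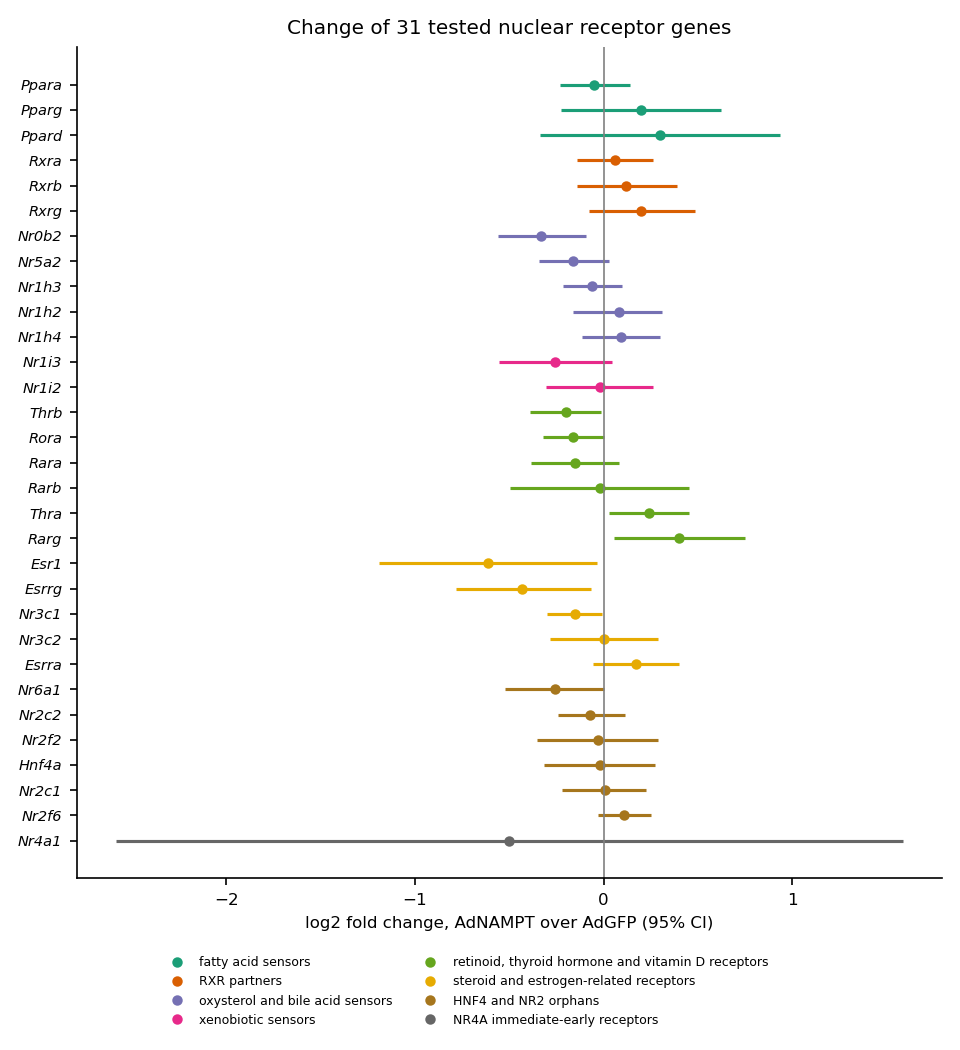
Log2 fold change of the 31 tested receptors, AdNAMPT over AdGFP, with 95% confidence intervals from limma and colours for the role of the receptor (4 libraries a group). Intervals of 7 receptors leave out 0 before adjustment, from Esr1 at -0.61 to Rarg at 0.4, and Nr4a1 has the widest interval.

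The bile acid axis held the receptor with the smallest p. SHP, the product of Nr0b2 (ENSMUSG00000037583, chromosome 4, 133553376 to 133556536, GRCm38), is an atypical receptor without a DNA-binding domain that FXR induces and that represses bile acid synthesis. Nr0b2 was at 54.5, 41.6, 48.7 and 55.0 TMM-scaled CPM in the AdGFP mice 1 to 4, and at 50.9, 41.5, 35.6 and 40.0 in the AdNAMPT mice. AdNAMPT replicate 1 lay among the AdGFP libraries, and the other 3 lay at or below the lowest of them, AdGFP replicate 2. The fold was 0.797 (95% CI 0.678 to 0.938, log2 -0.33 ± 0.11 SE), with a limma adjusted p of 0.411 (0.238 to 0.82 over the alternatives). It was negative in 19 of 19 alternative analyses and under an unadjusted p of 0.05 in 15, all of them limma fits with sample weights. The analyses without such weights gave -0.25 to -0.26 and were not under it. Their unadjusted p was 0.066 (edgeR quasi-likelihood test), 0.0766 (edgeR exact test), 0.0712 (DESeq2) and 0.0573 (limma without weights). Without AdNAMPT replicate 1, which had the lowest weight, the log2 fold change was -0.39 (limma adjusted p = 0.243). FXR itself (Nr1h4) was at 151, 140, 166 and 158 TMM-scaled CPM in AdGFP and 193, 183, 150 and 145 in AdNAMPT, overlapping groups with a log2 fold change of 0.09 ± 0.09. LRH-1 (Nr5a2), the activator that SHP restrains, had a log2 fold change of -0.16 ± 0.08 (limma adjusted p = 0.59).

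The same group contains the oxysterol receptors, which drive cholesterol export and fatty acid synthesis. LXRα (Nr1h3) was at 113, 102, 115 and 118 TMM-scaled CPM in AdGFP and 96.9, 115, 105 and 107 in AdNAMPT, a log2 fold change of -0.06 ± 0.07 with overlapping groups. LXRβ (Nr1h2) was at 0.08 ± 0.11 on the same scale.

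Promoter sequence was examined because several of these receptors bind, and are bound by, one another. RefSeq windows of 300 bases (250 before the transcription start and 50 from it, GRCm38.p6) were matched for 33 of the 36 receptors, with 52 windows in all. The half-site AGGTCA, or TGACCT on the other strand, occurred in 10 of 52 receptor windows (19.2%) and in 5340 of 32851 windows of all genes (16.3%). Windows of the same gene can overlap. By gene, 9 of 33 receptors (27.3%) had a window with the half-site, against 18.1% of 27025 genes. A gene with more windows has more chances to hold it, and the difference was not tested. An extended half-site of 9 letters, TCAAGGTCA or TGACCTTGA, which contains the shorter one, occurred in 0 receptor windows and in 0.423% of all windows. The windows of 3 receptors with an unadjusted p under 0.05 are printed below to show this range, with the half-site in capitals. Nr0b2 (chr4:133553126-133553425, plus strand) holds none, Thrb (chr14:17660710-17661009, plus strand) holds 1 that starts 184 bases before the transcription start, and Rarg (chr15:102257473-102257772, minus strand) holds 1 on the opposite strand from 225 bases before it. Thrb and Rarg each have a second RefSeq start, whose window holds no half-site. A match describes the letters only. The search took these exact letters, so no match says nothing of sites spelled otherwise within the window or of sites outside it.
Nr0b2: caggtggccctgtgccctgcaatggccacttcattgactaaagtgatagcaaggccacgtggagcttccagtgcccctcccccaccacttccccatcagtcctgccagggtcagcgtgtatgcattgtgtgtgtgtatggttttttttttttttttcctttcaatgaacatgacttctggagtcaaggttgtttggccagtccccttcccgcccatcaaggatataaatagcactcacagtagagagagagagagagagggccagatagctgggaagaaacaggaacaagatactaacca
Thrb: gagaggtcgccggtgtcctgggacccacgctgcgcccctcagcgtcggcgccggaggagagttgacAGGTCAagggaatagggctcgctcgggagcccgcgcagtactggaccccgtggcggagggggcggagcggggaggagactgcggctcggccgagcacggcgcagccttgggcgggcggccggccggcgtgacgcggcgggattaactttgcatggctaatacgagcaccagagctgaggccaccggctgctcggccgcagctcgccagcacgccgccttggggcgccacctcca
Rarg: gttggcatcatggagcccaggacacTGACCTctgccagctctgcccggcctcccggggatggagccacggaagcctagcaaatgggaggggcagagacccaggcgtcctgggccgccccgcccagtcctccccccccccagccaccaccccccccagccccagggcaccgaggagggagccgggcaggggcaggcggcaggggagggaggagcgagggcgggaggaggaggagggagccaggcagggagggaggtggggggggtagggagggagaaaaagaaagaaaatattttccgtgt

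Among the xenobiotic sensors, which induce drug-metabolising enzymes, CAR showed lower values in most libraries labelled AdNAMPT. Nr1i3 was at 159, 109, 160 and 169 TMM-scaled CPM in AdGFP and 116, 147, 128 and 108 in AdNAMPT. The 4 AdNAMPT libraries lay below 3 of the 4 AdGFP libraries, and AdGFP replicate 2 lay among them. The log2 fold change was -0.26 ± 0.14 (limma adjusted p = 0.592, 0.3 to 0.847 over the alternatives), and without AdGFP replicate 2 it was -0.35 (limma adjusted p = 0.3) and under an unadjusted p of 0.05. It was -0.36 without AdNAMPT replicate 2, and nearer 0 without AdNAMPT replicate 3 (-0.18) or 4 (-0.15). Exons of Nr1i3 share 51.4% of its exonic length with Tomm40l on the other strand (at most 6.996 CPM), and whether counting used strand is not given in the sources used here, so its level is less certain. PXR (Nr1i2) was at 93.8, 90.1, 126 and 115 TMM-scaled CPM in AdGFP and 101, 91.0, 118 and 121 in AdNAMPT, with a log2 fold change of -0.02 ± 0.13 and a 95% CI of the fold of 0.81 to 1.2.

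Of the fatty acid sensors, PPARα, the receptor that turns on fatty acid oxidation, was at 178, 184, 198 and 183 TMM-scaled CPM in AdGFP and 147, 177, 206 and 178 in AdNAMPT. Its 2 groups overlapped, with a log2 fold change of -0.05 ± 0.09 and a 95% CI of the fold of 0.851 to 1.1. PPARγ (Pparg), which promotes lipid storage, ranged from 16.1 to 28.1 TMM-scaled CPM in AdGFP and from 11.4 to 24.2 in AdNAMPT (log2 0.2 ± 0.19), and its log2 fold change ran from 0.08 without AdNAMPT replicate 4 to 0.33 without AdNAMPT replicate 1, its lowest library. PPARδ (Ppard) had at most 64 counts in a library and a log2 fold change of 0.3 ± 0.29. The shared partner RXRα was at 385, 305, 377 and 362 TMM-scaled CPM in AdGFP and 401, 408, 348 and 350 in AdNAMPT, a log2 fold change of 0.06 ± 0.09, and all 3 RXR genes had overlapping groups and changes from 0.06 to 0.2.

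The retinoid and thyroid hormone receptors had changes of both signs. The retinoic acid receptor gene Rarg (ENSMUSG00000001288, chromosome 15, 102234938 to 102257517) was at 2.22, 2.76, 2.56 and 2.90 TMM-scaled CPM in AdGFP and 3.47, 3.82, 3.30 and 3.06 in AdNAMPT, and each AdNAMPT library lay above each AdGFP library. Its fold was 1.32 (95% CI 1.04 to 1.68, log2 0.4 ± 0.16, limma adjusted p = 0.476), on 31 to 68 counts a library. The thyroid hormone receptor gene Thra was at 8.17, 7.44, 7.36 and 8.55 TMM-scaled CPM in AdGFP and 9.92, 9.21, 9.57 and 8.95 in AdNAMPT, also without overlap (fold 1.18, 95% CI 1.02 to 1.37, limma adjusted p = 0.492). Thra shares 263 exonic bases with Nr1d1 on the other strand, whose log2 fold change was -0.05 ± 0.29.

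Thrb, the thyroid hormone receptor that predominates in hepatocytes, had a change opposite in sign to that of Thra. It was at 48.9, 47.5, 48.9 and 50.7 TMM-scaled CPM in AdGFP and 35.6, 39.2, 46.7 and 48.2 in AdNAMPT, and 3 of the AdNAMPT libraries lay below the narrow AdGFP range while AdNAMPT replicate 4 lay inside it. The log2 fold change was -0.2 ± 0.09 (limma adjusted p = 0.503, 0.284 to 0.839 over the alternatives) and -0.13 ± 0.08 without AdNAMPT replicate 1 or -0.11 ± 0.09 without AdNAMPT replicate 2. Rora, which encodes a sterol-binding receptor, was at -0.16 ± 0.07 (limma adjusted p = 0.534), and Rara and Rarb were at -0.15 and -0.02 on the log2 scale.

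Of the 5 steroid and estrogen-related receptors, 3 were lower at an unadjusted p under 0.05, where 5.04% of all tested genes were lower. The glucocorticoid receptor gene Nr3c1 was at 104, 111, 103 and 104 TMM-scaled CPM in AdGFP and 83.0, 93.4, 99.9 and 95.4 in AdNAMPT, without overlap. The fold was 0.898 (95% CI 0.812 to 0.993, limma adjusted p = 0.497). The log2 fold change was -0.15 ± 0.07, and -0.12 ± 0.07 without AdNAMPT replicate 1. On CPM scaled by library size alone its groups overlapped. The estrogen receptor gene Esr1 (ENSMUSG00000019768, chromosome 10, 4611593 to 5005614) had the most negative estimate and was at 25.0, 32.7, 28.5 and 36.1 TMM-scaled CPM in AdGFP and 7.42, 15.8, 26.6 and 28.3 in AdNAMPT. AdNAMPT replicates 1 and 2 lay below all AdGFP libraries, and replicates 3 and 4 lay within their range. The log2 fold change of -0.61 ± 0.26 (limma adjusted p = 0.499, 0.264 to 0.859 over the alternatives) became -0.36 ± 0.19 without AdNAMPT replicate 1, -0.35 ± 0.26 without replicate 2, and -0.91 and -0.9 without replicates 3 and 4.

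The estrogen-related receptors, orphan regulators of mitochondrial and energy genes, differed from each other in sign. Esrrg was at 7.10, 6.59, 8.43 and 8.32 TMM-scaled CPM in AdGFP and 3.47, 5.32, 7.09 and 5.95 in AdNAMPT. AdNAMPT replicate 3 lay within the AdGFP range and the other 3 below it. The log2 fold change was -0.43 ± 0.16 (limma adjusted p = 0.465, 0.274 to 0.648 over the alternatives), -0.32 ± 0.14 without AdNAMPT replicate 1 and -0.3 ± 0.18 without AdNAMPT replicate 2. Esrra ranged from 32.0 to 40.2 TMM-scaled CPM in AdGFP and from 36.8 to 57.2 in AdNAMPT (log2 0.17 ± 0.1, limma adjusted p = 0.641). Without AdNAMPT replicate 1, its highest library, it was at 0.11 ± 0.09. The mineralocorticoid receptor gene Nr3c2 was at 0.0 ± 0.13.

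**Figure D3:**
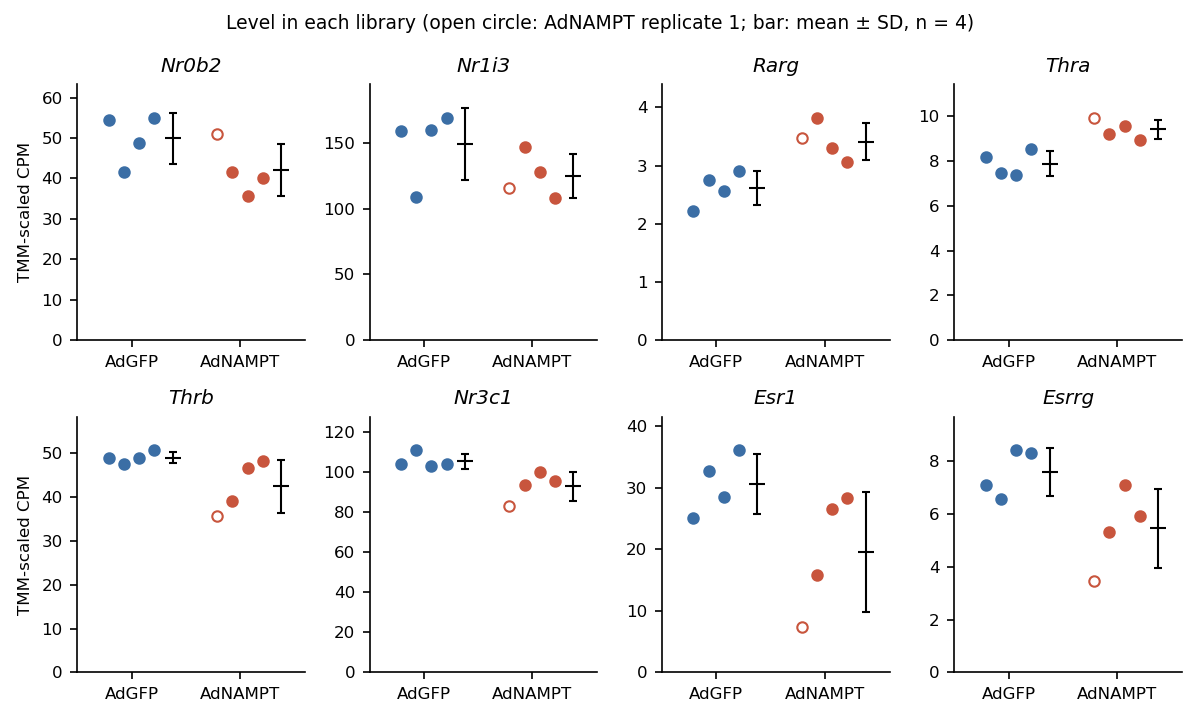
TMM-scaled CPM of 8 receptor genes in each library, with AdNAMPT replicate 1 as an open circle and the mean ± SD of each group (n = 4) beside it, every axis starting at 0. Rarg and Thra lie higher and Nr3c1 lower in AdNAMPT without overlap, whereas Esr1 spans 7.42 to 28.3 within AdNAMPT alone.

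HNF4α and the NR2 orphan receptors held no member at an unadjusted p under 0.05. Hnf4a was at 623, 532, 641 and 664 TMM-scaled CPM in AdGFP and 935, 646, 512 and 545 in AdNAMPT, where replicate 1 was the highest of all libraries and replicate 3 the lowest. The log2 fold change was -0.02 ± 0.13, and -0.15 ± 0.1 without AdNAMPT replicate 1. Nr2f6, an orphan receptor of the COUP-TF group, was at 43.8, 41.8, 44.0 and 44.7 TMM-scaled CPM in AdGFP and 53.9, 46.2, 46.8 and 46.7 in AdNAMPT. Its groups did not overlap, and the log2 fold change was 0.11 ± 0.06 (limma adjusted p = 0.629). Its exons share 54.4% of their length with Ocel1 on the other strand (19.1 to 29.2 CPM). Nr2c2, with 38.6% of its length shared with Mrps25, varied least of the tested receptors, with a coefficient of variation of 6.47% over the 8 libraries and a log2 fold change of -0.07 ± 0.08. Nr6a1 was at -0.26 ± 0.12 (limma adjusted p = 0.527), and Nr2c1 and Nr2f2 were at 0.01 and -0.03.

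Of the NR4A receptors, which are induced within minutes of a stimulus and need no ligand, only Nr4a1 passed the filter on low counts. It was at 6.09, 0.767, 2.93 and 0.382 TMM-scaled CPM in AdGFP and 0.645, 0.750, 5.05 and 0.471 in AdNAMPT, so that it varied 16-fold between libraries without following the groups (log2 -0.5 ± 0.95, limma adjusted p = 0.911). Summed CPM of 18 listed immediate-early genes ran from 109 to 187 in AdGFP and from 150 to 288 in AdNAMPT. AdNAMPT replicate 3 had the highest sum and AdGFP replicate 1, the library with the most Nr4a1, the lowest. Nr4a1 is described outside the rule for naming genes, after its values were seen.

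Several receptors had like profiles over the libraries. Across the 8 libraries, log2 levels of Esr1 correlated with those of Thrb (r = 0.96) and Esrrg (r = 0.92), Rora with Nr3c1 (r = 0.94) and Nr2f6 with Esrra (r = 0.93), while Nr2f6 and Nr3c1 ran opposite (r = -0.96), as did Hnf4a and Pparg (r = -0.92). These are descriptions over libraries that share depth and the 2 groups, and the pairs are the strongest found. AdNAMPT replicate 1 was an end point of most of them, being the lowest of 8 libraries for 10 receptors and the highest for 8. Without that library, the fold change lay nearer 0 for 18 of 31 receptors and for 6 of the 7 with an unadjusted p under 0.05, of which 1, Nr0b2, stayed under that threshold. In that analysis 0 receptors were higher and 1 of 31 was lower at that threshold, where 10.5% of all genes were under it.

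**Figure D4:**
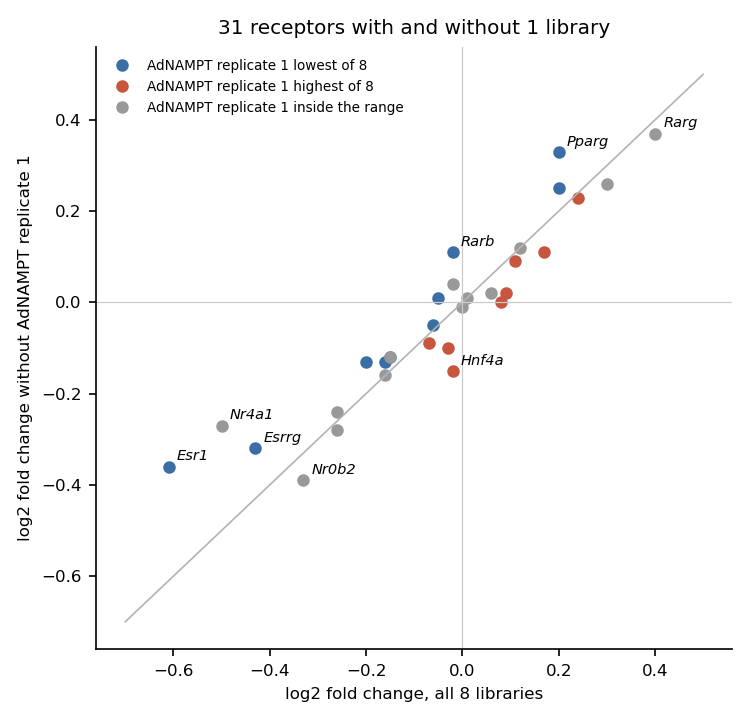
Log2 fold change of the 31 tested receptors with all 8 libraries (x axis) and without AdNAMPT replicate 1 (y axis), coloured by where that library lies among the 8; the diagonal marks equal values. Esr1 moves from -0.61 to -0.36, whereas Nr0b2 moves from -0.33 to -0.39.

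Fold changes were also set against base composition. Over 31 receptors the log2 fold change correlated with the GC content of the longest annotated transcript at r = 0.37 (Spearman's rho = 0.43), compared with r = 0.1 (rho = 0.18) over 12215 genes; both are across genes, which are not independent replicates. Of 8 receptors with a GC content under 46%, 1 had a positive change (median -0.16), where 43.1% of all such genes were positive (median -0.023). Of 10 receptors at 56% or more, 6 were positive (median 0.07), against 66.6% of all such genes (median 0.069). After each library was corrected for GC content, r over the receptors was 0.3. Nr2f6 was the only receptor called (log2 0.4 ± 0.07, limma adjusted p = 0.0387, 0.0387 to 0.89 over the alternatives). With the replicate block added it was not called (0.4, limma adjusted p = 0.109). The correction raised Nr2f6 from 0.11 ± 0.06. It lowered the other receptors at 56% GC or more, such as Rarg (0.4 to 0.32) and Thra (0.24 to 0.17), and the cause of this difference was not tested. Nr2f6 has 67.3% GC, which 0.123% of tested genes exceed, and the 15 tested genes between 66% and 68% had a median change of 0.113 before the correction.

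**Figure D5:**
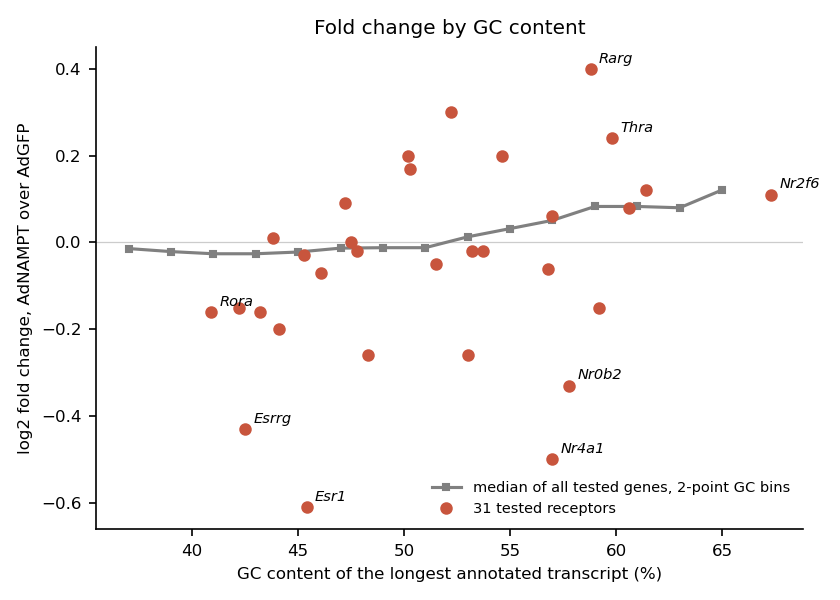
Log2 fold change, AdNAMPT over AdGFP, against the GC content of the longest transcript, with the 31 tested receptors as points and the median of all tested genes in steps of 2 percentage points as a line (steps with fewer than 20 genes left out). Esrrg and Esr1 lie low at low GC, and Rarg and Thra lie high at high GC.

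Genes downstream of the receptors were read from 13 lists of partners, coregulators and targets, with 219 genes matched and 195 tested. Of these, 1 passed the adjusted threshold, Cyp2b10, the classical target of CAR. It fell from 93.4 ± 13.1 to 40.2 ± 6.21 TMM-scaled CPM (mean ± SD, n = 4 each, log2 -1.24 ± 0.13, limma adjusted p = 0.000929). Of 29 tested CAR and PXR targets, 25 had a negative change (median -0.19, against 0.0015 over all genes), and 8 were lower and 0 higher at an unadjusted p under 0.05. Of all tested genes, 5.04% were lower and 4.65% higher at that threshold. The 8 lower targets included the drug-metabolising cytochromes Cyp2c54 (-0.69 ± 0.17), Cyp2c50 (-0.52 ± 0.15) and Cyp2c37 (-0.63 ± 0.18), whose limma adjusted p lay between 0.225 and 0.357. The same cytochrome families have near-identical members, which makes their separate counts less certain.

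No other list of targets had a gene past the adjusted threshold. Of 17 glucocorticoid receptor targets, 6 had a positive and 11 a negative change (median -0.1). Gadd45a was higher (log2 1.23 ± 0.22, limma adjusted p = 0.0606), and Tat (-0.56 ± 0.15) and Pck1 (-0.49 ± 0.17), which serve amino acid breakdown and gluconeogenesis, were lower at an unadjusted p under 0.05. Of 19 HNF4A targets, 8 had a positive and 11 a negative change (median -0.08). At that threshold 4 were lower and 1 higher, beside 5.04% and 4.65% of all tested genes. The 4 included Ahsg (-0.44 ± 0.13), Cyp2d26 (-0.26 ± 0.09) and F7 (-0.28 ± 0.1). Of 14 FXR and SHP targets, 4 had a positive and 10 a negative change (median -0.06). Fetub was lower at that threshold (-0.24 ± 0.1), and Cyp7a1, the rate-limiting enzyme of bile acid synthesis, was at 223 ± 57.6 TMM-scaled CPM in AdGFP and 337 ± 183 in AdNAMPT (limma adjusted p = 0.711). Cyp7a1 is named outside the rule, after its values were seen.

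For the lists that follow, 5.04% of all tested genes were lower and 4.65% higher at an unadjusted p under 0.05. Of 14 LXR targets, 10 had a positive and 4 a negative change (median 0.09). The sterol exporters Abcg8 and Abcg5 were each lower at an unadjusted p under 0.05, with a log2 change of -0.21. Of 24 PPARα targets, 15 had a positive and 9 a negative change (median 0.02), and Cyp4a31 (-0.45 ± 0.18) and Cpt2 (-0.17 ± 0.07), both of fatty acid oxidation, were lower at an unadjusted p under 0.05. The 10 tested PPARγ steatosis genes had 9 positive changes (median 0.22), with none under that threshold and the largest in Cidea (1.39 ± 1.09). Of 11 tested retinoid, thyroid hormone and vitamin D targets none was under it, and the largest change was in Cyp26b1, which degrades retinoic acid (-0.95 ± 0.54). Of the coregulators, none of 17 coactivators (largest change Ncoa7, 0.34 ± 0.27) and 1 of 15 corepressors, Lcor (-0.27 ± 0.08), reached it. The 4 tested receptors outside the list of 36 had 1 positive and 3 negative changes. Of them, the REV-ERB gene Nr1d2 was lower at an unadjusted p under 0.05 (-0.29 ± 0.08, limma adjusted p = 0.312). The 14 tested clock genes had 7 positive and 7 negative changes. At that threshold Per2 (0.27 ± 0.1) and Bhlhe41 (0.97 ± 0.36) were higher and Nfil3 (-0.37 ± 0.14) lower. Of 13 tested immediate-early genes, 4 were higher at an unadjusted p under 0.05, where 4.65% of all tested genes were higher. They were Atf3 (1.09 ± 0.27), Jund (0.45 ± 0.14), Klf2 (0.49 ± 0.17) and Jun (0.97 ± 0.35).

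Markers of the cell types that liver tissue holds were set beside these values. Summed CPM of 10 hepatocyte markers ran from 100237 to 128130 in AdGFP and from 99649 to 125575 in AdNAMPT, so the tissue label was borne out by them in every library. Of 12 Kupffer cell and macrophage markers, 11 had a negative change (median -0.27) and Vsig4 (-0.51 ± 0.12), Timd4 (-0.83 ± 0.23) and Clec4f (-0.45 ± 0.17) were lower at an unadjusted p under 0.05. Of all tested genes, 5.04% were lower and 4.65% higher at that threshold. Summed CPM of the Kupffer cell and macrophage markers ran from 391 to 495 in AdGFP and from 303 to 493 in AdNAMPT. AdNAMPT replicates 1 and 2 were the lowest, the same libraries in which Esr1, Esrrg and Thrb were lowest. At an unadjusted p under 0.05, 3 of 12 stellate cell markers were higher (Pdgfrb, Col1a1 and Col1a2) and Rgs5 lower. These 12 had 6 positive and 6 negative changes (summed CPM 467 to 525 in AdGFP and 487 to 555 in AdNAMPT). The 12 endothelial markers had 8 positive and 4 negative changes, with Stab1 higher at that threshold (384 to 463 and 426 to 487). The 6 tested cholangiocyte markers had 4 positive and 2 negative changes, with Sox9 higher at it (29.4 to 45.1 and 32.5 to 47.2). T and B cell markers summed to at most 5.36 CPM with none tested, neutrophil markers to at most 7.6 CPM, and erythroid markers to 303 to 577 CPM in AdGFP and 400 to 655 in AdNAMPT. The 6 tested erythroid and 2 tested neutrophil markers all had a positive change, none of them at an unadjusted p under 0.05. The part of these cells in the receptor values was not tested.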

How the data were processed

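Total RNA from liver homogenate was sequenced in 8 libraries. Per the labels and the study's methods, the authors aligned reads with STAR (version 2.4.0b in the submitters' processing notes) to GRCm38 and counted unambiguous reads per gene with featureCounts 1.4.5. The library kit is given as ribosomal RNA depletion in the labels and as poly-A selection in the study's methods. Each deposited file holds whole-number counts for 41388 features, CPM that the authors scaled to the library total, and deposited RPKM, which is that CPM per kilobase of exon; both were recomputed from the counts. Whether counting used strand is not given in the sources used here.

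Symbols came from GENCODE M21 (40340 features matched). As in the study, 355 ribosomal RNA features and genes not above 1 CPM in at least 3 libraries were left out. Counts were scaled by TMM factors (0.9471 to 1.054) and fitted with voomWithQualityWeights, lmFit and eBayes in limma 3.58.1 (edgeR 4.0.16, DESeq2 1.42.0, R 4.3.3, Python 3.11.15), with Benjamini-Hochberg adjustment over 12270 genes. Fold changes are AdNAMPT over AdGFP, and errors are SE unless given as SD. The limma, edgeR, DESeq2, blocked and GC-corrected fits were each tested on simulated data with all 8 libraries. With 200 genes changed 3-fold, the reported limma fit recovered 193 and made 15 false calls. The simulated counts held no effect of GC content or of a block and no smaller changes. They therefore cannot show how well those corrections, or changes of the size seen in the receptors, are handled. The GC correction removed a natural spline on transcript GC content from each library's log2 CPM. The 19 alternatives were other tests (edgeR quasi-likelihood, edgeR exact, DESeq2), scalings, filters, no sample weights, the replicate block, GC correction and each library left out.

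The titles number the mice within each group and nothing else says which mice were handled together, so p-values measure the spread between these 4 mice a group. The receptors and gene lists were chosen with earlier results of these data known. Receptors were described in full where p was under 0.05, where groups did not overlap, where RPKM was among the 6 highest, or where their targets were listed; of list genes, up to 4 with the smallest p under 0.05, or the largest change, were named. One list gene that the rule would name is not reported here.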

Additional observations from a re-analysis of the deposited data

Results flagged for a closer look

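In each group of 4 libraries, a library was singled out where its gap to the nearest other exceeded Dixon's 95% limit. Of 62 groups of receptor values examined, 5 held such a library, where chance gives about 1 in 20, or 3.1. AdGFP replicate 2 accounted for 3 of them. It had Pparg at 28.1 TMM-scaled CPM, against 16.1 to 16.6 in the other 3 AdGFP libraries, Nr1i3 at 109, against 159 to 169, and Nr3c1 at 111, against 103 to 104. AdNAMPT replicate 1 had Nr2f6 at 53.9, against 46.2 to 46.8 in the other AdNAMPT libraries. AdNAMPT replicate 3 had Nr4a1 at 5.05, against 0.471 to 0.75.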

How the results depend on the processing

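Receptors called numbered 0 with every alternative but the GC correction, which gave 1, Nr2f6. All genes called (34 as reported) were 65 with the edgeR exact test and 75 with DESeq2. Receptors higher at an unadjusted p under 0.05 (2 as reported) were 0 with DESeq2, 5 with library size only, and 1 with no filter, with the replicate block or with the GC correction. Receptors lower (5 as reported) were 3 with the quasi-likelihood test and DESeq2, and 1 with the exact test and with library size only. Leaving out 1 library gave 0 to 3 higher, with 0 without AdGFP replicate 3 or AdNAMPT replicate 1 and 1 without AdGFP replicate 1 or 2 or AdNAMPT replicate 2 or 3, and 1 to 7 lower, with 1 without AdGFP replicate 4 or AdNAMPT replicate 1 and 2 without AdNAMPT replicate 2. List genes called (1 as reported) were 2 with the exact test, library size only and the GC correction with block, 3 with DESeq2 and the GC correction, and 1 to 2 with a library left out (2 without AdGFP replicate 2 or AdNAMPT replicate 4). With library size only the median receptor change was 0.057 and that of all genes 0.09.

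Mice of the same number correlated at r = 0.225, -0.045, 0.213 and 0.005, so the numbers were not taken as pairs; with the replicate block, 41 genes, 0 receptors and 1 list gene were called, with 4 receptors lower and a median of 0.013.

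Of 285 values for the 15 named receptors under the alternatives, 257 kept their sign and side of the threshold and 27 changed sign, each in a receptor near 0. Nr1i2 was at 0.02 with the 3 other tests and without sample weights, 0.06 with library size only, 0.01 with the replicate block and -0.14 to 0.12 with a library left out. Hnf4a was at 0.1 with the 3 other tests, 0.08 without weights, 0.07 with library size only, 0.02 with no filter and -0.15 to 0.09 with a library left out. Ppara was at 0.04 and Nr1h3 at 0.02 with library size only, and Rxra at -0.02 with the GC correction and -0.04 with the block added. With a library left out, Ppara ranged from -0.11 to 0.01, Rxra from -0.02 to 0.13 and Nr1h4 from -0.02 to 0.2. The cause of these shifts was not tested. With 31 counts or more in each library for Rarg, 1.3 to 3.11 CPM for Ppard and under 1 CPM in most libraries for the untested receptors, depth limits what can be said of the rarest receptors.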
